A study of Mus musculus with 2 samples.

Results

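The clustered histone genes are the 67 protein-coding mouse genes whose symbols begin with Hist1h, Hist2h, Hist3h or Hist4h, out of 55536 mouse genes in the gene tables. Symbols marked as pseudogenes (-ps) and symbols without a protein-coding transcript were left out, which removed 3 genes. RNA of the heart was measured in 2 adult female mice of the F1 hybrid strain B6CASTF1/J, a cross of C57BL/6J and CAST/EiJ parents, aged 8 to 10 months. Both hearts form 1 untreated group. In the labels, replicate 1 bears the animal number 1 and replicate 2 the animal number 3. Total RNA, 300 ng per library, was depleted of ribosomal RNA and sequenced with a directional kit, so RNAs without a poly(A) tail were not selected against by that step. Depth, as summed expected counts, was 40553237 in replicate 2 and 42223411 in replicate 1. Unless an animal is named, a value is the mean ± SD of both animals (n = 2). No p-value is printed, since the smallest that an exact two-sided sign-flip test of 2 animals can reach is 0.5.

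Histones package DNA. The core histones H2A, H2B, H3 and H4 form the particle that DNA wraps around, and the linker histone H1 binds where DNA enters and leaves it. In dividing cells the clustered genes supply new histones while DNA is copied, and their canonical mRNAs end in a stem-loop in place of a poly(A) tail. Most replacement histone genes lie outside the clusters, make ordinary polyadenylated mRNAs and can be used at any time. Adult heart muscle cells divide rarely.

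The stem-loop was searched in the annotated transcripts as a 6-base stem beginning with GG and ending with CC, all its bases paired, around a 4-base loop. Of the 67 genes, 46 had it in a transcript, among them 4 of 6 H1, 11 of 18 H2A, 10 of 18 H2B, 9 of 12 H3 and 12 of 13 H4 genes. It began 24 to 61 bases after the coding sequence, with a median of 34 bases over 48 transcripts. The examples below are shown because their classes carry different stems. They are from the GENCODE M21 transcripts (mm10), 5′ to 3′, with the stem-loop in capitals and 5 bases on either side.
Hist1h1c: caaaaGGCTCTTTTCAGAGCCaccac
Hist2h2aa2: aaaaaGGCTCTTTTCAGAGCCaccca
Hist2h2ac: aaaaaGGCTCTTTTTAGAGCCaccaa
Hist1h3e: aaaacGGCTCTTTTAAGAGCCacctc
Hist1h4h: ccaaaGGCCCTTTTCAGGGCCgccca
Hist1h4b: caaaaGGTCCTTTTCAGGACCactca
All 12 H4 genes with a stem-loop had a stem unlike that of the other classes: 10 carried the stem of Hist1h4h, with some differences in the loop, and 2 carried that of Hist1h4b and Hist1h4j. The 34 genes of the other classes shared the stem of Hist1h1c and differed among themselves only in the loop.

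Together the clustered histone genes had 453 TPM (transcripts per 1000000, a level per transcript length) in replicate 2 and 484 TPM in replicate 1, a mean of 468 ± 21.6 TPM. That was 0.0468% ± 0.0022 of all TPM, and 0.132% ± 0.006 of the TPM of nuclear protein-coding genes. Expression was called where both animals reached 1 TPM. By that rule 41 of the 67 (61.2%) were expressed, against 48.7% of the 22028 protein-coding genes. Another 17 were under 1 TPM in both animals and 9 reached it in only 1 of the animals. Most of the sum came from few genes: the 5 highest held 53.7% ± 2.28 of it and the 10 highest 68.1% ± 3.46, while the median member stood at 2.18 ± 0.37 TPM.

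**Figure D1:**
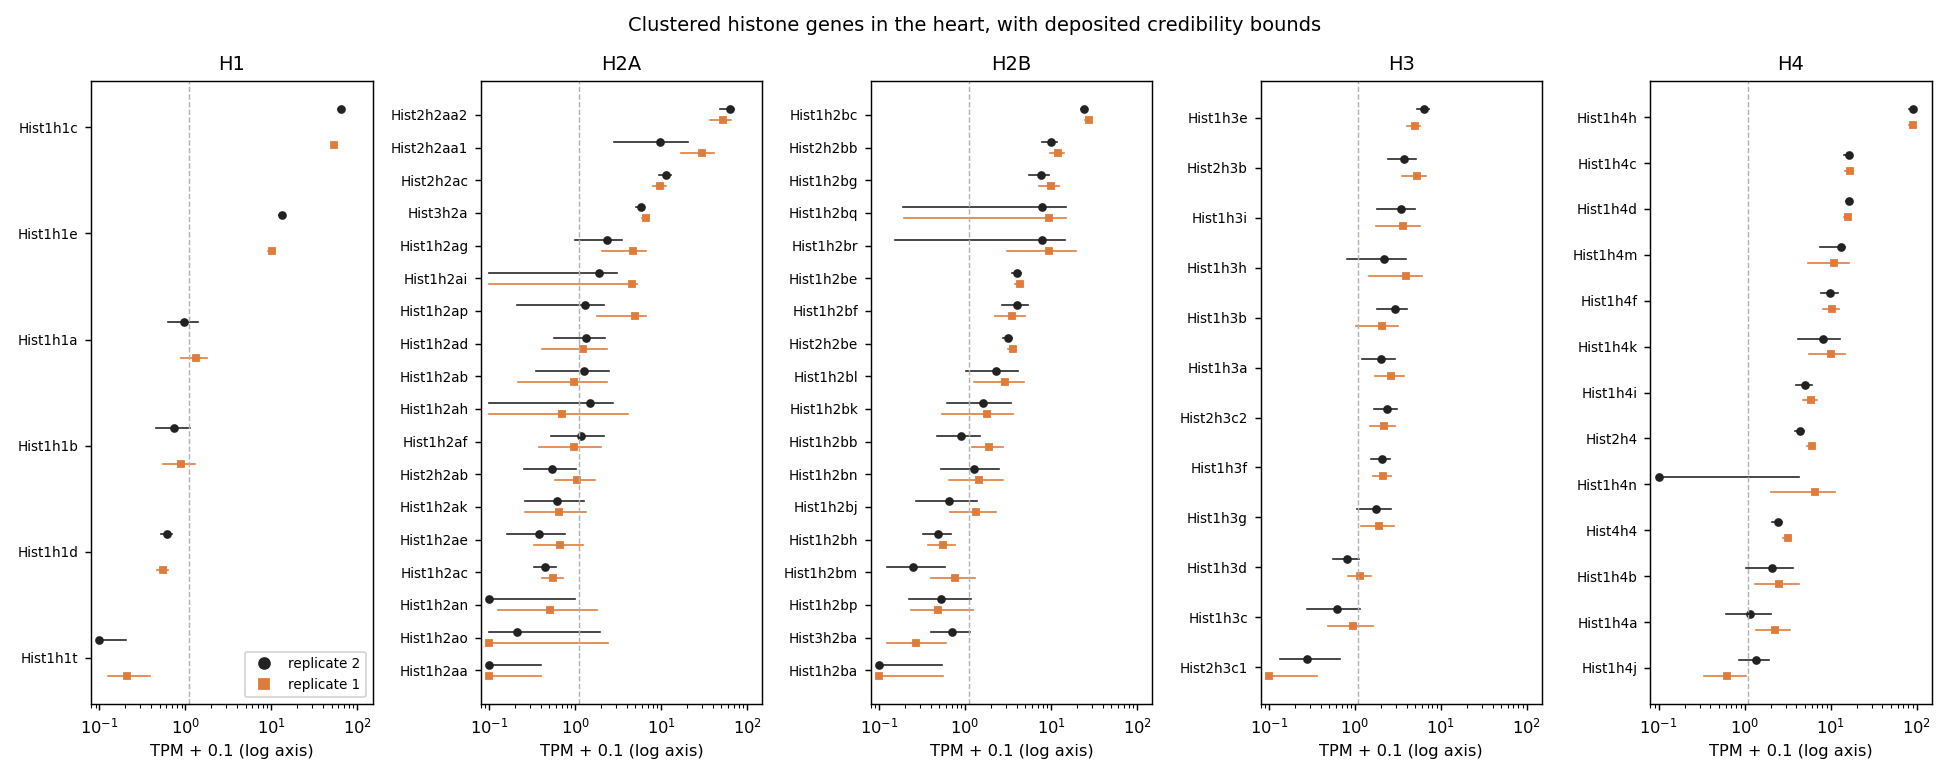
TPM + 0.1 of the 67 clustered histone genes on a log axis, by class. Circles are replicate 2, squares replicate 1, bars the deposited credibility bounds, and the dashed line marks 1 TPM. Hist1h4h, at 89.6 and 89.8 TPM, was the highest, and the bars of replicate 2 that span from near 0 to over 10 TPM belong to Hist1h2bq and Hist1h2br.

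H1, the linker class, held 15.5% ± 2.66 of the clustered sum. Of its 6 genes, 2 were expressed. Hist1h1c, which encodes the subtype H1.2 (chromosome 13, 23738808 to 23740367, plus strand, mm10), had 63.5 TPM in replicate 2, against 53.2 TPM in replicate 1, on 3143 and 2613 expected counts. It held 80.8% ± 0.081 of the class. Hist1h1e, the gene of H1.4, had 13.2 TPM in replicate 2, against 10.1 TPM in replicate 1. Next came Hist1h1a (H1.1) with 0.870 TPM in replicate 2 and 1.21 TPM in replicate 1, and Hist1h1b (H1.5) with 0.640 and 0.790 TPM in the same order. The linker class thus rested on the pair Hist1h1c and Hist1h1e in both animals. Hist1h1d (H1.3) stood at 0.480 ± 0.042 TPM on an annotated transcript of 7425 bases. By expected counts it lay above Hist1h1a, with 126 and 112 against 19 and 26 in replicates 2 and 1. The testis gene Hist1h1t had 0 counts in replicate 2 and 3.00 in replicate 1.

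H2A held 23.5% ± 1.38 of the sum, and 8 of its 18 genes were expressed. The highest was Hist2h2aa2 (chromosome 3, 96239749 to 96240276, minus strand), with 63.8 TPM in replicate 2 and 51.7 TPM in replicate 1. Its neighbour Hist2h2aa1 (chromosome 3, 96245497 to 96246082, plus strand) had 9.49 TPM in replicate 2, against 30.0 TPM in replicate 1. The coding sequences of this pair are identical, and every 31-base word of the Hist2h2aa2 transcript also occurs in that of Hist2h2aa1, so how the reads divide between the copies is uncertain. Their sum was 73.3 TPM in replicate 2 and 81.7 TPM in replicate 1, or 77.5 ± 5.95 TPM. Hist2h2ac followed with 11.2 TPM in replicate 2 and 9.65 TPM in replicate 1, and Hist3h2a with 5.65 and 6.54 TPM in the same order. The other expressed H2A genes, Hist1h2ag, Hist1h2ai, Hist1h2ap and Hist1h2ad, had means of 1.18 to 3.45 TPM. Hist2h2ab was under 1 TPM in both animals, at 0.690 ± 0.368 TPM.

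H2B held 17.7% ± 1.29, with 11 of 18 genes expressed. Hist1h2bc (chromosome 13, 23684199 to 23692908, plus strand) led with 24.4 TPM in replicate 2 and 27.4 TPM in replicate 1. Its only annotated transcript is spliced from 2 exons over 1156 bases and has no stem-loop of the searched pattern. Hist2h2bb had 9.78 TPM in replicate 2, against 11.9 TPM in replicate 1, and Hist1h2bg had 7.54 and 9.98 TPM in the same order. Hist1h2bq and Hist1h2br, with identical coding sequences, had 8.67 ± 1.17 and 8.60 ± 1.19 TPM in the gene table, but their credibility bounds ran from 0.0885 to 14.7 TPM and from 0.0549 to 14.6 TPM in replicate 2. Then came Hist1h2be at 4.08 ± 0.24, Hist1h2bf at 3.68 ± 0.37, Hist2h2be at 3.27 ± 0.29, Hist1h2bl at 2.50 ± 0.42, Hist1h2bk at 1.61 ± 0.11 and Hist1h2bn at 1.27 ± 0.13 TPM. Hist3h2ba, the H2B gene of the Hist3 cluster, was under 1 TPM in both animals, at 0.385 ± 0.304 TPM. The testis genes Hist1h2aa and Hist1h2ba, which lie head to head, were the only members at 0 counts in both libraries. By counting error alone, 0 counts leave room for 0.0740 counts per 1000000 in replicate 2 and for 0.0711 in replicate 1.

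H3 held 6.11% ± 0.095, the lowest share, although 9 of its 12 genes were expressed. None reached 10 TPM. The highest was Hist1h3e (chromosome 13, 23561534 to 23562369, minus strand), with 6.19 TPM in replicate 2 and 4.87 TPM in replicate 1. Hist2h3b had 4.43 ± 1.08, Hist1h3i 3.46 ± 0.13, Hist1h3h 2.97 ± 1.24 and Hist1h3b 2.43 ± 0.62 TPM. Hist1h3a, Hist2h3c2, Hist1h3f and Hist1h3g lay between 1.75 ± 0.11 and 2.23 ± 0.45 TPM. Hist2h3c1, whose coding sequence equals that of Hist2h3c2, stood at 0.090 ± 0.127 TPM.

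H4 held the largest share, 37.2% ± 0.11, with 11 of 13 genes expressed and none under 1 TPM in both animals. Hist1h4h (chromosome 13, 23531050 to 23531519, plus strand) had 89.6 TPM in replicate 2, against 89.8 TPM in replicate 1, on 1123 and 1117 expected counts. It was the highest of all 67 genes and held 51.5% ± 2.15 of its class. Hist1h4c had 16.4 TPM in replicate 2, against 16.8 TPM in replicate 1, Hist1h4d 16.5 and 15.7 TPM, and Hist1h4m 13.0 and 10.9 TPM in the same order. Hist1h4f and Hist1h4k stood at 10.0 ± 0.23 and 8.93 ± 1.38 TPM, and Hist1h4i and Hist2h4 at 5.37 ± 0.64 and 5.15 ± 1.15 TPM. Hist4h4, the single gene of the Hist4 cluster (chromosome 6, 136801553 to 136804415, minus strand), had 2.34 TPM in replicate 2, against 3.09 TPM in replicate 1. Hist1h4b and Hist1h4a were expressed at 2.22 ± 0.32 and 1.62 ± 0.79 TPM. The classes of the core particle were thus not level: the H4 sum of 174 ± 7.53 TPM lay above the sums of H2A, 110 ± 11.5, H2B, 83.0 ± 9.84, and H3, 28.6 ± 1.76 TPM, in both animals and in both kinds of table. By expected counts, which are not divided by length, the order differed, with H1 at 32.7% ± 4.63 and H4 at 27.1% ± 1.18 of the members' counts.

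Replacement histone genes were set beside the clustered ones by class. Clustered H3 genes, at 28.6 ± 1.76 TPM, held 12.3% ± 0.097 of the H3 total, the rest being 204 ± 14.4 TPM of replacement H3. Of that, H3f3a, one of the genes of H3.3, had 133 TPM in replicate 2, against 159 TPM in replicate 1. H3f3b, the other H3.3 gene, had 43.9 TPM in replicate 2, against 34.1 TPM in replicate 1, and Cenpa, the centromeric H3, had 19.3 ± 3.09 TPM. Clustered H2A genes held 57.4% ± 0.0042 of the H2A total by TPM. By expected counts the clustered shares were 40.9% ± 1.09 for H2A and 7.94% ± 0.25 for H3, so for H2A the larger part then lay with the replacement genes. The replacement H2A genes were led by H2afv at 28.1 ± 1.92 and H2afz at 24.9 ± 4.62 TPM, which encode forms of H2A.Z. H2afy (macroH2A) had 14.6 ± 3.61, H2afj 8.46 ± 1.25, H2afx 3.72 ± 0.19 and H2afy2 1.74 ± 0.54 TPM. Clustered H1 genes held 73.2% ± 0.27 of the H1 total (68.4% ± 0.14 by expected counts), with H1f0 at 26.1 ± 3.56 TPM and H1fx, the one replacement gene not expressed, at 0.450 ± 0.141 TPM. The list holds no replacement H2B or H4 gene. Over all classes the replacement sum over the clustered sum was 0.666 ± 0.010.

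**Figure D2:**
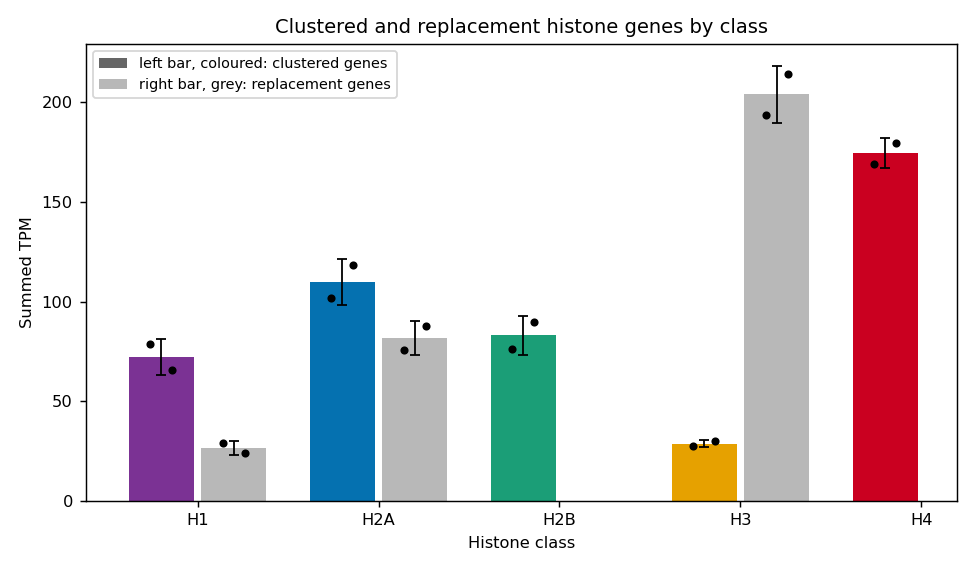
Summed TPM by histone class. Left, coloured bars are clustered genes and right, grey bars replacement genes; bars are means, error bars the SD over 2 animals, and points the animals, replicate 2 to the left. By TPM, H3 is the class in which the grey bar, at 204 TPM, exceeds the coloured one, at 28.6 TPM.

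The genes that make, process and place histones were mostly expressed. Of 26 such genes found, 21 reached 1 TPM in both animals, against 48.7% of all protein-coding genes. The highest were Sympk, a scaffold of the enzyme complex that cuts histone mRNA ends, at 34.0 ± 3.78 TPM, Anp32e, a chaperone that removes H2A.Z, at 28.2 ± 0.92, Atrx, a partner of Daxx in placing H3.3, at 21.2 ± 1.26, and Srcap, which exchanges H2A for H2A.Z, at 19.6 ± 0.71 TPM. Slbp, the protein that binds the stem-loop, had 4.28 TPM in replicate 2, against 3.49 TPM in replicate 1. Npat, the activator of histone gene transcription, had 2.21 TPM in replicate 2, against 2.82 TPM in replicate 1. Among the 5 not expressed were Chaf1a and Chaf1b, subunits of the factor that places histones on copied DNA, at 0.350 ± 0.057 and 0.220 ± 0.042 TPM, and Asf1b, a histone chaperone, at 0.505 ± 0.021 TPM. The others were Lsm11, a subunit of the particle that guides the cut after the stem-loop, at 0.920 ± 0.184 TPM, and Zfp473 at 0.010 ± 0.014 TPM. Lsm11 missed the rule only in replicate 1, at 0.790 TPM, against 1.05 TPM in replicate 2. Of 20 genes of DNA synthesis and division, 8 were expressed, against the same 48.7%, and a list this short cannot be told from that share. The 8 were led by Pcna, the sliding clamp of DNA polymerases, at 13.8 ± 1.53, Mcm7 at 3.01 ± 0.48, Mcm4 at 2.25 ± 0.44 and Mcm6 at 1.88 ± 0.04 TPM. The 5 markers of dividing cells, all of them also among these 20, were under 1 TPM in both animals. They summed to 1.47 TPM in replicate 2 and 1.04 TPM in replicate 1. The 67 clustered histone genes summed to 453 and 484 TPM in the same order. These sums cover unlike numbers of genes, and how they relate was not tested. None of the 10 replacement, 21 supply or 8 synthesis genes compared was 2-fold apart between the animals, against 1.41% of all genes compared. Lists this short cannot be told from that share. The tissue label was borne out by cardiac genes such as Myh6, a myosin heavy chain, at 8288 ± 745 TPM. The 4 globin genes, of red blood cells, summed to 2246 TPM in replicate 2 and 3464 TPM in replicate 1, and 3 lymphocyte markers to 0.480 and 0.230 TPM in the same order. Endothelial markers summed to 86.4 TPM in replicate 2 and 117 TPM in replicate 1, fibroblast markers to 122 and 144 TPM and macrophage markers to 36.6 and 45.3 TPM in the same order, with all 3 of 3 expressed in each list. In RNA of a whole organ the cells that hold the histone RNA were not resolved.

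Transcripts of the clustered genes were sorted by where their annotated end lies. In 26 genes the main transcript goes on for more than 50 bases past the stem-loop, and in 20 it ends at or within 50 bases of it. In 21 no stem-loop of the searched pattern was found. Of the 21, 15 have a main transcript annotated as coding sequence to the stop codon only, which cannot hold one; among these, Hist1h2bq and Hist1h2br also have longer transcripts. By TPM, transcripts running past the stem-loop held 34.6% ± 3.01 of the clustered sum, those ending near it 46.0% ± 1.17 and those without it 19.4% ± 1.84. By expected counts the order of the first sets turned: those running past it held 58.5% ± 3.35, those ending near it 24.7% ± 1.80 and those without it 16.8% ± 1.55 of the members' counts. The first set includes Hist1h1c, with 840 bases after the stem-loop, Hist1h1e with 1153, Hist1h4d with 770, Hist1h4c with 454 and Hist3h2a with 1643 bases. The set ending near it includes Hist1h4h, with 46 bases, and Hist2h2aa2, with 35 bases after the stem-loop. The median member stood at 2.22 ± 0.12, 2.05 ± 0.63 and 2.29 ± 0.72 TPM in the order just given, differences within the SD over the animals. These are shares by annotated model: no read position was available, so where RNAs ended was not measured. For 62 genes the annotation has 1 transcript. Hist1h2be has several, of which Hist1h2be-203 has no coding sequence. In the alignment-derived table it held 52.0% of the gene's TPM in replicate 2 and 41.8% in replicate 1. The FASTQ-derived table divided the gene differently: the coding transcript Hist1h2be-202 led, at 3.29 TPM in replicate 2 and 3.66 TPM in replicate 1. Hist1h2be-203 had 2.13 and 1.80 TPM there in the same order.

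By cluster, the 54 Hist1 genes held 73.6% ± 0.89 of the sum, the 10 Hist2 genes 24.4% ± 0.80, the 2 Hist3 genes 1.38% ± 0.0058 and Hist4h4 0.578% ± 0.087. The Hist1 cluster spans 2219 kb of chromosome 13, from 21715763 to 23934851, and gaps of over 100 kb divide it into 4 stretches. The stretch of 29 genes from Hist1h4h to Hist1h1a had 274 TPM in replicate 2, against 269 TPM in replicate 1. The 18 genes from Hist1h2bl to Hist1h2br had 51.4 TPM in replicate 2, against 70.3 TPM in replicate 1, and the 5 genes from Hist1h2ah to Hist1h2bj 10.7 and 14.0 TPM in the same order. The last stretch holds the uncounted pair Hist1h2ba and Hist1h2aa. High and low genes were interspersed within the stretches, as Hist1h4h and the neighbouring Hist1h2af, at 0.970 ± 0.127 TPM, show.

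**Figure D3:**
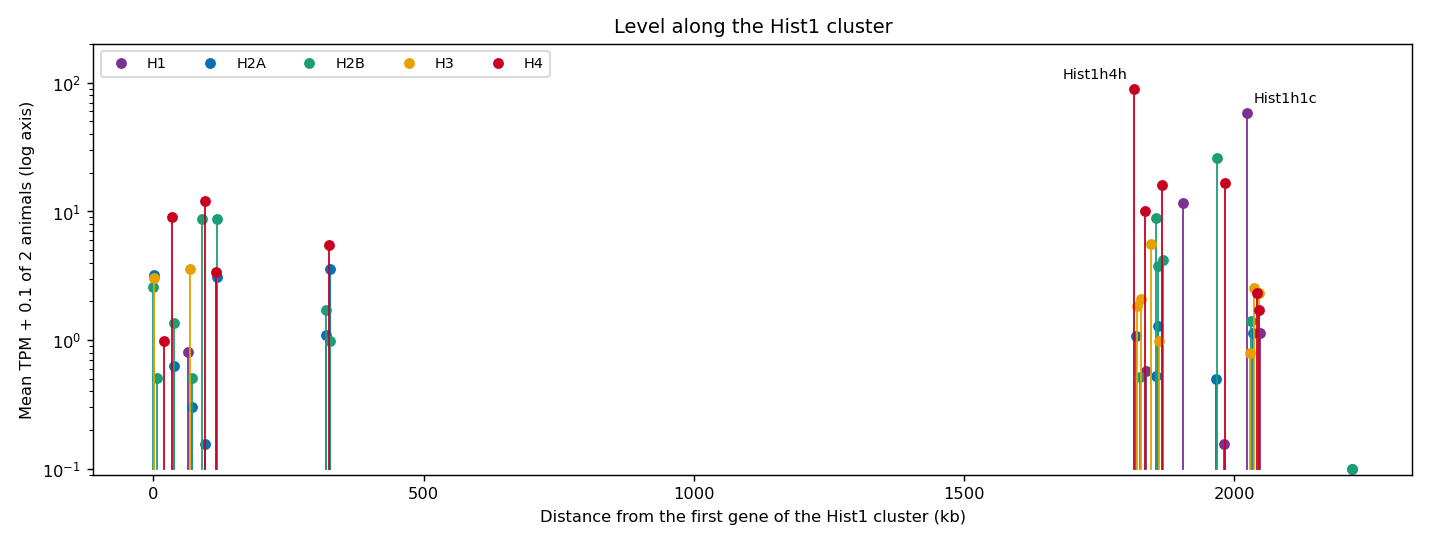
Mean TPM + 0.1 (log axis) of the 54 Hist1 genes against distance from the first gene of the cluster in kb, coloured by class. The highest members, Hist1h4h and Hist1h1c, both lie in the stretch of 29 genes to the right of the wide gap, and the pair at the far end is at 0.

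In 12 pairs an H2A and an H2B gene lie head to head on opposite strands, with starts within 1000 bases of each other. H2B was 2-fold or more above H2A in both animals in 5 pairs and 2-fold or more below it in 2. In the FASTQ-derived table these numbers were 4 and 3, on partly different pairs. Hist1h2bc, Hist1h2bf and Hist1h2bg were above, and Hist2h2be below, in both tables. The gene table alone had Hist1h2bn and Hist1h2bq above and Hist1h2bj below. The FASTQ-derived table alone had Hist1h2bp above and Hist1h2bk and Hist1h2bl below. The widest pair that both tables gave alike was Hist1h2bc, at 24.4 TPM in replicate 2 and 27.4 TPM in replicate 1, over Hist1h2ac, at 0.350 and 0.450 TPM in the same order. Their starts are 251 bases apart, and their TPM differed 69.7-fold in replicate 2 and 61.0-fold in replicate 1. The gap was narrower by expected counts: Hist1h2bc had 874 and 975 and Hist1h2ac 28.4 and 36.1 in replicates 2 and 1. The annotated lengths are 1156 bases for Hist1h2bc and 2482 bases for Hist1h2ac. Hist1h2bg exceeded Hist1h2ae 26.9-fold in replicate 2 and 17.5-fold in replicate 1. These folds rest on few counts, as Hist1h2ae had 5.63 and 11.6 expected counts in the same order. On the log2 scale (TPM + 0.1) this pair stood at 4.33 in replicate 2 and 3.91 in replicate 1. The FASTQ-derived table gave 3.13 and 4.00 in the same order. The pair Hist2h2be and Hist2h2ac ran the other way by TPM: on the log2 scale (TPM + 0.1) H2B over H2A was -1.84 in replicate 2 and -1.45 in replicate 1. By expected counts, which are not divided by length, this pair turned round: Hist2h2be had 261 and 294 and Hist2h2ac 159 and 136 expected counts in replicates 2 and 1, on annotated lengths of 2620 and 520 bases. The direction in this pair thus rests on the annotated lengths. Over all pairs, H2B was 2-fold or more above H2A by expected counts in 5 and below it in 1, Hist1h2bj over Hist1h2ag.

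The start regions of 2 pairs that differ in opposite directions by TPM are shown, from RefSeq (GRCm38.p6), each as 250 bases before to 50 after the RefSeq start of the H2A gene, on its strand. Capitals mark any of 3 motifs on either strand: the octamer ATTTGCAT, CCAAT and TATAAA. Hist1h2ac lies at chr13:23683910-23684209, minus strand, and Hist2h2ac at chr3:96220831-96221130, minus strand.
Hist1h2ac: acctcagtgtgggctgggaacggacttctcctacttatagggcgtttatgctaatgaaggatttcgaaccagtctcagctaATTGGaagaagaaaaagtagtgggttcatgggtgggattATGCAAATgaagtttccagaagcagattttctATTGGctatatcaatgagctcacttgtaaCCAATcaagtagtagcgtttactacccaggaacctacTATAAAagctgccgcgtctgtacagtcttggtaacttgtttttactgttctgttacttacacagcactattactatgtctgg
Hist2h2ac: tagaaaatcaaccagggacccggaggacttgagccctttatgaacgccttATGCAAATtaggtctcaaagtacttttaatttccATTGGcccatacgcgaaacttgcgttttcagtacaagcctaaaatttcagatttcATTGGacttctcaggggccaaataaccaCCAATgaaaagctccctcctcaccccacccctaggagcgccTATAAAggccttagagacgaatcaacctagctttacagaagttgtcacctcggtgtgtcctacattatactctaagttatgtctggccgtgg
Both windows hold the octamer once, CCAAT 3 times and TATAAA once. Over the 61 members found in the RefSeq table, the octamer, known from H2B promoters, was in 7 of 17 H2A and 6 of 16 H2B windows and in none of the 28 windows of H1, H3 and H4, against 1.74% of 32851 promoter windows of this length. CCAAT was in every H1, H2A, H2B and H3 window but in only 3 of 12 H4 windows, against 37.4% of all. TATAAA was in 35 of the 61, against 13.6% of all. The windows of a head-to-head pair overlap, so these are not independent. The window of Hist1h4h, the highest member, held none of the 3.

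**Figure D4:**
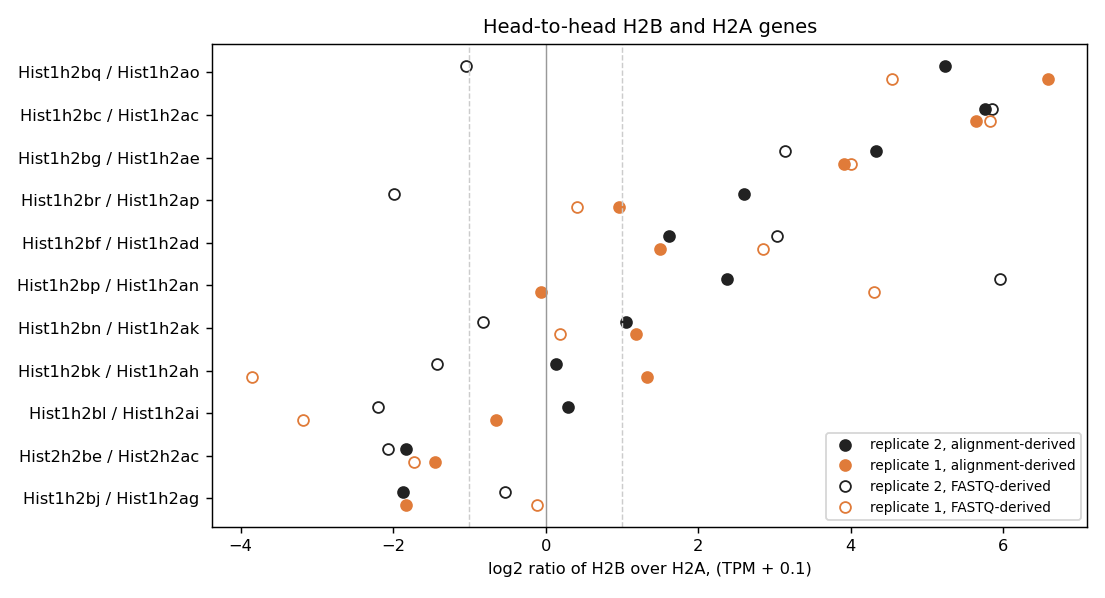
Log2 ratio of H2B over H2A (TPM + 0.1) in the 11 head-to-head pairs with a count. Black is replicate 2, orange replicate 1, filled points the alignment-derived gene table, open points the FASTQ-derived table, and dashed lines 2-fold. Hist1h2bc over Hist1h2ac sits between 5.65 and 5.85 in all 4 measurements, while the ratio of Hist1h2bp over Hist1h2an moves with animal and table.

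The animals were compared by the log2 ratio of replicate 2 over replicate 1 of TPM + 0.1, centred on their median over 11876 genes; these had a mean of 1 TPM or more and 20 or more expected counts summed over the libraries. Of the 45 members that passed this filter, 0 were 2-fold higher in replicate 2, against 0.707% of all genes, and 4 (8.89%) were 2-fold lower, against 0.707%. In either direction 1.41% of all genes were 2-fold apart. The FASTQ-derived table gave 0 higher, against 0.673% of all genes, and 4 lower of 43 members, against 0.715%, and only Hist1h2ai was among the same 4. Without the filter, 5 of 65 were higher, against 4.25% of all genes, and 6 lower, against 3.16%. The median of the 45 was -0.02, with 22 above 0 and 23 below. Hist1h4n had 0 counts in replicate 2 and 72.6 expected counts in replicate 1, or 6.53 TPM. In the FASTQ-derived table Hist1h4n fell below the filter, at 0 TPM in replicate 2 and 1.24 TPM in replicate 1. Its log2 ratio there was -3.59, on 9.55 estimated counts in replicate 1. Its near-identical copy Hist1h4m had 13.0 TPM in replicate 2, against 10.9 TPM in replicate 1, and the sum of both was 13.0 TPM in replicate 2 and 17.4 TPM in replicate 1, a log2 ratio of -0.24. Hist2h2aa1 had a log2 ratio of -1.47 (-0.24 in the FASTQ-derived table), Hist1h2ap one of -1.74 and Hist1h2ai one of -1.09. Summed with its copy Hist2h2aa2, Hist2h2aa1 gave a ratio of 0.03. Summed with Hist1h2ao, of identical coding sequence, Hist1h2ap gave one of -1.62, on 1.31 TPM in replicate 2 and 4.82 TPM in replicate 1, and in the FASTQ-derived table that sum was 1.23 and 1.69 TPM in the same order.

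Credibility bounds of the animals did not overlap in 4 of the 45 members, against 28.0% of all genes compared. Hist1h1c had a log2 ratio of 0.44, with bounds of 60.0 to 64.4 TPM in replicate 2 and 50.1 to 54.2 TPM in replicate 1, and Hist1h1e had one of 0.57; both were higher in replicate 2. Hist2h4 and Hist4h4 were lower, at -0.27 and -0.20. The H1 sum differed by 0.44, and the sums of H2A, H2B, H3 and H4 by -0.03, -0.06, 0.06 and 0.09. In RNA of a whole heart, fewer cells of a type and less RNA per cell cannot be told apart, and with 1 library per animal these differences have no replicate check. The largest ratios in replicate 2's favour were those of Hist1h3b (0.69), Hist1h2ab (0.57), Hist1h1e, Hist1h3e (0.52) and Hist2h2aa2 (0.48), and the fifth in the other direction was that of Hist1h2bb (-0.91). In the FASTQ-derived table, centred on its own compared genes, the ratio of Hist1h3b was 0.18.

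How well a gene can be measured depends on its own sequence. The share of its 31-base words found in the transcripts of no other gene ranged from 0% for Hist2h2aa2 to 100% for Hist1h1t. In 40 of the 67 it was under 50%, and in 20 under 20%. Coding sequences of equal length were in the median 96.7% identical among H2A, 97.4% among H2B, 97.2% among H3 and 93.9% among H4 genes, and 5 pairs were identical: Hist1h2ao and Hist1h2ap, Hist2h2aa1 and Hist2h2aa2, Hist1h2bq and Hist1h2br, Hist2h3c1 and Hist2h3c2, and Hist1h4m and Hist1h4n. In the gene table, all 4 members 2-fold apart between the animals were among the 30 compared with under 50% unique words. Of the 15 compared with more, 0 were 2-fold apart. In the FASTQ-derived table the 4 were Hist1h2ai, Hist1h2bb, Hist1h2br and Hist1h4k. Among these, Hist1h2bb had 52.3% unique words and a log2 ratio of -1.34 there, on 9.94 and 30.5 estimated counts in replicates 2 and 1. Without centring, Hist1h2bb was also 2-fold lower in the gene table.

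The FASTQ-derived transcript table was set against the alignment-derived one, both summed to genes. Of 51 members at 1 TPM in either, 4 (7.84%) differed at least 2-fold in both animals, against 5.21% of 12379 genes. Hist1h2ai and Hist1h2bp were higher in the FASTQ-derived table, a direction found for 2.36% of all genes, and Hist1h2bq and Hist1h2br were lower, as were 2.85% of all. Hist1h2bp had 6.10 and 8.57 TPM by the FASTQ-derived values in replicates 2 and 1, but 0.420 and 0.390 TPM in the alignment-derived one. Most of the FASTQ-derived level lay on its spliced transcript Hist1h2bp-202, at 5.90 TPM in replicate 2 and 8.38 TPM in replicate 1. Hist1h2bq had 0.149 and 2.22 TPM by the FASTQ-derived values in replicates 2 and 1, against 7.84 and 9.49 TPM in the alignment-derived one. Summing it with Hist1h2br left the pair at 0.281 and 4.51 TPM, against 15.6 and 18.9 TPM, so the pair differed between the tables as a sum too; where the reads were placed was not tested. Hist1h2ah, the fifth of the members farthest apart, had 2.65 and 5.87 TPM by the FASTQ-derived values in replicates 2 and 1, against 1.38 and 0.610 TPM. Hist1h4h, the highest member in both tables, had FASTQ-derived levels of 128 TPM in replicate 2 and 130 TPM in replicate 1. Across the 67 members, Spearman's rho was 0.910 between the animals and 0.819 and 0.838 between the tables in replicates 2 and 1; members share sequence and are not independent.

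**Figure D5:**
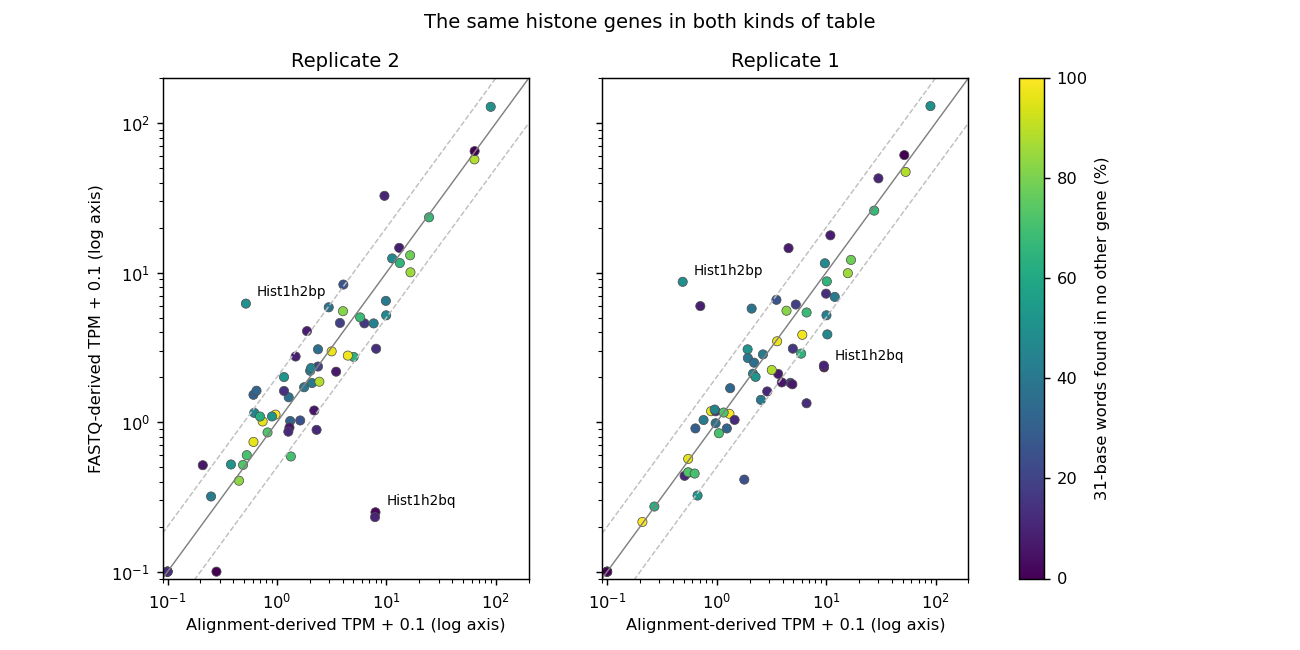
FASTQ-derived against alignment-derived TPM + 0.1 (log axes) of the 67 members in replicate 2 (left) and replicate 1 (right), coloured by the share of 31-base words found in no other gene; dashed lines are 2-fold. Hist1h2bp lies above and Hist1h2bq below the dashed lines in both animals, and both have under 50% unique words.

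Overlap with other genes on the same strand touched 7 members. Hist1h1e and Hist1h2be overlap each other, and the rest overlap genes at 1.54 TPM or less in both animals: Gm20634, which overlaps Hist2h2aa1 and Hist2h3c1, had 1.22 TPM in replicate 2, against 1.54 TPM in replicate 1. The kit keeps strand, per the labels' protocols, but no source used here states the strand setting of the counting.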

How the data were processed

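Per the deposited description files, each library has a gene table and a transcript table derived from transcriptome alignments and another transcript table derived from FASTQ reads, all on mm10 with GENCODE M21; no aligner or quantification tool is named in the sources used here. Per the file headers, the alignment-derived tables hold expected counts, which need not be whole, TPM, posterior mean TPM, and isoform percent, the part of a gene's level on a transcript. The credibility bounds of TPM are, per the file headers, a deposited signal on the TPM scale, and their level is not stated. The other transcript table has, per the file headers, estimated counts and TPM. The deposited values were made against the C57BL/6J reference although the animals also carry a CAST/EiJ genome; alleles were not analysed.

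Members were selected by symbol and matched by gene ID. TPM were used as deposited, with 0.1 added before log2; the filter was a mean of 1 TPM and 20 expected counts over both libraries, and table comparisons used a mean of 1 TPM in either table and were not centred. Unique 31-base words, read on the transcript strand, came from the GENCODE M21 transcripts, and promoters from the RefSeq table, in which 61 of 67 members matched. Both animals form 1 group: no test between groups was made, and the labels' animal numbers, not the shared donor identifier, are the ground for n = 2. Depth was 41468698 estimated counts in replicate 2 and 43782858 in replicate 1 in the FASTQ-derived tables. Limits for counts of 0 (3 counts) cover counting error only, as PCR reads carrying no molecular identifier do not count molecules. The 2-fold rule was run on simulated counts without variation between animals. Expected counts for pairs and class shares were added after seeing the data. Named genes are all expressed members, the 4 highest of each class, the 5 with the largest ratios in each direction, the 5 farthest apart between tables, all Hist2, Hist3 and Hist4 members, head-to-head pairs, the replacement list and the 4 highest of other lists; other names, such as those of low members, were picked with their values in view. The members and lists were chosen with earlier results of these data known. Alternatives were thresholds, pseudocounts, centring, filters, counts and tables. Python 3.11.15, pandas 2.3.3 and numpy 2.4.6 were used.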

Additional observations from a re-analysis of the deposited data

Results flagged for a closer look

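Symbols of the histone clusters that were left out carried counts past the limit set for a feature at 0 (3 counts). The pseudogene Hist1h2al had 138.84 expected counts in replicate 2 and 104.28 in replicate 1, or 17.1 and 13.0 TPM in the same order, and was listed at 0 in the FASTQ-derived table in both animals. The pseudogene Hist3h2bb-ps had 7.48 expected counts in replicate 2 and 8.04 in replicate 1.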

How the results depend on the processing

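Of 74 alternatives, 22 were added after the data were seen. In all, 43 stayed within 1.5 times a count, within 1 SD of a value or within a fixed margin of the median log2 ratio. With 2 animals, a value from 1 animal always lies within 1 SD of the mean of both. For values, leaving out 1 animal could therefore not come out otherwise and shows no stability. No paired analysis was possible because the series has 1 group. Leaving out 1 animal gave 45 to 46 expressed members against 41 in both, a share of TPM of 0.0453% to 0.0484%, class shares of 13.6% to 17.4% (H1), 22.5% to 24.4% (H2A), 16.8% to 18.6% (H2B), 6.05% to 6.18% (H3) and 37.2% to 37.3% (H4), 32.5% to 36.7% for transcripts past the stem-loop 0.659 to 0.673 for replacement over clustered and clustered shares of 73.0% to 73.4% (H1), 57.4% to 57.5% (H2A) and 12.2% to 12.4% (H3) of the class. In the FASTQ-derived table the share of TPM was 0.0493%, the class shares were 28.4% (H2A), 14.0% (H2B), 5.97% (H3) and 38.4% (H4), and transcripts past the stem-loop held 28.1% and clustered genes 70.8%, 65.5% and 11.3% of the H1, H2A and H3 totals. By expected counts the share was 0.0277%, the class shares were 32.7% (H1), 17.0% (H2A), 4.90% (H3) and 27.1% (H4), transcripts past the stem-loop held 58.5%, and replacement over clustered was 0.966, clustered genes held 68.4%, 40.9% and 7.94% of the H1, H2A and H3 totals, and H2B was 2-fold lower in 1 pair; counts are not divided by length. With nuclear protein-coding genes as denominator the share was 0.132%. The median log2 ratio between the animals was -0.0254 with a pseudocount of 0.01, -0.0014 with 1, -0.20 without centring and -0.0491 without the filter, and it was reversed, at 0.0786, in the FASTQ-derived table and, at 0.0070, over members with 50% or more unique words. Members 2-fold apart between the animals numbered 11 of 65 without the filter and 0 of 15 among those with 50% or more unique words. In the FASTQ-derived table they again numbered 4, including Hist1h2bb with 52.3% unique words, and only Hist1h2ai was among those of the gene table. Hist1h4n fell below the filter there. Members 2-fold apart between the tables numbered 14 by counts. With near-identical genes summed, 2 entries stayed apart: the sum of Hist1h2bq and Hist1h2br, and Hist1h2bp alone. Only Hist1h2ai was thus no longer apart once summed with its near-identical genes. The cause was not tested. Low counts limit members near 1 TPM, some of which rest on under 20 counts per library.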
